A study of Homo sapiens with 4 samples.

Results

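The members described here are the SMD2 peaks that the authors placed in 3' untranslated regions (3' UTRs) of protein-coding genes. They were chosen by the annotation alone, as every entry of the deposited peak list with the class 3' UTR and the gene type protein-coding. This gave 1022 of 9401 peaks, in 900 genes. The study ran PAR-CLIP in HEK293T, an established line from human embryonic kidney, with 3 libraries from SMD2 immunoprecipitation and 1 input library. In this assay 4-thiouridine fed to the cells becomes part of new RNA and is joined to the protein beside it by ultraviolet light, and the fragments that survive digestion with RNase T1 on the purified protein are sequenced. All libraries come from the same cell line, and the labels describe pull-down with an anti-FLAG antibody without giving the tagged construct, its level, whether the line was 1 clone or whether libraries came from separate cultures. The deposited list gives positions only: there is no peak height, no strand and no value per library or for the input. Depth behind each peak is therefore unknown, no spread between replicates can be given, and no difference below was tested, since peaks and genes of 1 list are not replicates. Intervals are Wilson 95% intervals and cover counting error only.

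SMD2, the product of SNRPD2, is 1 of the Sm proteins that form a ring on spliceosomal small nuclear RNAs. The ring is loaded in the cytoplasm by the SMN complex, and the finished particles return to the nucleus to recognise splice sites and catalyse splicing. A 3' UTR is the stretch of an mRNA between the stop codon and the poly(A) tail. It is known for carrying sites for microRNAs and RNA-binding proteins that set the stability, location and translation of the message, and most human 3' UTRs lie in the last exon and are not spliced. The U1 particle, which also carries the Sm ring, is known to restrain cleavage and polyadenylation at early sites in a transcript.

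None of the 1022 peaks had a base in the sequence windows used here, so the RNA under the 3' UTR peaks was not analysed. For genes with a 3' UTR peak, 4 peaks at the other end of the same gene lay wholly in the window around its start site. The 3 of at most 30 bases are shown because they are peaks of these genes whose bases could be read. The bases are RefSeq's (GRCh38.p14), on the gene's strand, with T in capitals, the letter that stands for the uridine that 4-thiouridine replaces. The ANKRD13C peak is at chr1:70354690-70354700 on the minus strand and starts 22 nt past the start site. The BTBD3 peak is at chr20:11892513-11892532 on the plus strand and starts 20 nt past it. The UBL4A peak is at chrX:154486667-154486681 on the minus strand and starts at position -66, before the start site.
ANKRD13C: cccTgTTTTTc
BTBD3: aTcacccTTTTTcaTTTcTT
UBL4A: cggcggcgggcggTT
T made up 6 of 11 bases in ANKRD13C and 11 of 20 in BTBD3, each with a run of T. It made up 2 of 15 bases in UBL4A, where 13 were G or C, and 5 of 32 in the longer TLK2 peak, where 26 were G or C. The list gives no strand, so the RNA contacted could also be from the other strand.

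The 3' UTR peaks made up 10.9% of the list (interval 10.3 to 11.5%) and 57.4% of the 1780 coding-gene peaks labelled 3' UTR, exon or 5' UTR (55.1 to 59.7%). Together they covered 28370 of the 264537 bases in the list. Most genes held a single one: 801 genes had 1 peak, 82 had 2, 11 had 3 and 6 had 4. The 99 genes with 2 or more held 221 of the peaks (21.6%). Of RefSeq's 20050 protein-coding genes 880 held a 3' UTR peak, which is 4.39%. Of the 4323 with a peak of any class outside the intergenic one, the share was 20.4%.

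Peaks in 3' UTRs were short, with a median width of 25 nt and an interquartile range of 20 to 33 nt. Intron peaks of coding genes had a median of 23 nt (20 to 29 nt), exon peaks 23 nt (19 to 32 nt) and peaks at transcription termination sites 26 nt (21 to 37 nt). The middle values of these classes thus lay within a few nucleotides, and the upper ends spread more. Widths of 50 nt or more were seen in 52 of the 1022 3' UTR peaks (5.09%, interval 3.90 to 6.61%). This was near the share over the whole list, 4.99% of 9401 peaks (4.57 to 5.45%). By class the share was 1.58% of 4246 intron peaks (1.24 to 2.00%) and 6.99% of 701 exon peaks (5.33 to 9.12%). It was 10.2% of 599 promoter peaks (8.01 to 12.9%) and 10.7% of 261 termination site peaks (7.53 to 15.1%).

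**Figure D1:**
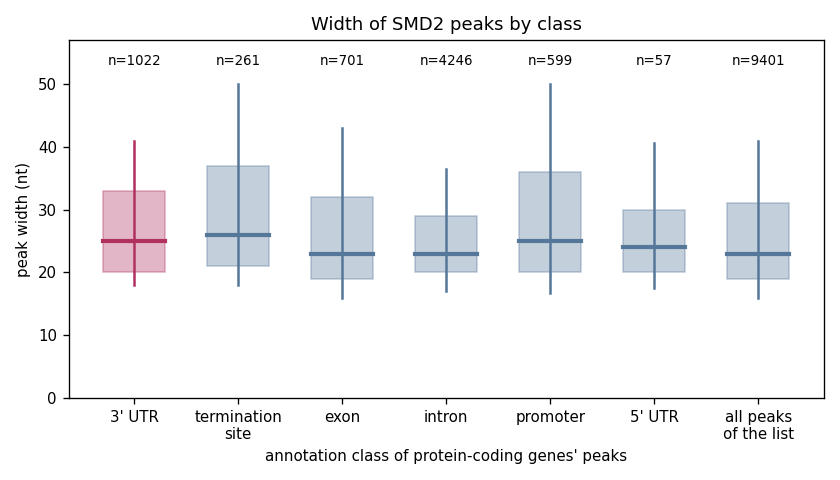
Width in nt of coding-gene peaks by annotation class, with all peaks of the list at the right; boxes run from the lower to the upper quartile, the thick line is the median, thin lines run from the 10th to the 90th percentile and n is the number of peaks. The 3' UTR median is 25 nt, between the 23 nt of intron peaks and the 26 nt of termination site peaks.

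The widest 3' UTR peak, 181 nt, lay in RPS23, a protein of the small ribosomal subunit, between 82276066 and 82276246 on chromosome 5. It was followed by 117 nt in MTR, the methionine synthase, at 236900215 to 236900331 on chromosome 1, and by 114 nt in FAM168B at 131048776 to 131048889 on chromosome 2. These were the only 3 above 100 nt. YWHAB, the 14-3-3 beta protein that binds phosphorylated partners, had a peak of 92 nt on chromosome 20. ZNF655, a zinc finger gene, had 88 nt, AP1B1, a subunit of a clathrin adaptor, 77 nt, and RTL6, a gene derived from a retrotransposon, 72 nt. The remaining 5 of the 12 widest were 68 nt in C1orf115, 67 nt in the small GTPase gene ARFRP1 and in RSL1D1, 66 nt in NUCKS1 and 65 nt in GRK2, a kinase of G protein-coupled receptors. ICMT, with a peak of the same 65 nt, tied with GRK2. At the other extreme 18 peaks were under 10 nt wide, down to 1 nt in ARPIN-AP3S2 and BOLA2-SMG1P6, both genes named for read-through of neighbouring loci.

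The label was checked against the position of each peak in the RefSeq span of its gene. Of the 1022 peaks 1002 matched a RefSeq gene, and for 834 the strand of that gene was known. The distance below runs from the downstream edge of the peak to the 3' end of the longest RefSeq extent of the gene. For 3' UTR peaks its median was 1785 nt, with quartiles of 853 and 3766 nt. Among the 823 of these inside the span, the median peak lay 95.3% of the way along it, counting from the 5' end. The median position of termination site peaks along the span was close to this. Within 5000 nt of the 3' end were 665 of the 834 peaks (79.7%, interval 76.9 to 82.3%). The share was 68.8% of 218 termination site peaks (62.4 to 74.6%), so closeness to the end was not particular to 3' UTR peaks. It was 26.4% of 588 exon peaks (22.96 to 30.1%) and 6.97% of 3587 intron peaks (6.18 to 7.85%). The high share of 3' UTR peaks near the end follows in part from the rule, since a 3' UTR label already places a peak near a transcript end.

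Most 3' UTR peaks were not at the very end. Of the 834, 116 (13.9%) lay 0 to 499 nt from it, 123 lay 500 to 999 nt away, 195 lay 1000 to 1999 nt away and 231 lay 2000 to 4999 nt away. These bins differ in width: per 100 nt they held 23.2, 24.6, 19.5 and 7.70 peaks, so that the count per 100 nt was highest in the last 1000 nt. How many 3' UTRs reach each distance was not known, so these are not densities per base of 3' UTR. Termination site peaks, the class most like them by position, had 32.6% of 218 at 0 to 499 nt. RPS29, a ribosomal protein gene, shows a 3' UTR peak near the end, at 167 nt. SF3B4, a U2 particle subunit, had one at 172 nt, PABPN1, the nuclear poly(A)-binding protein, at 216 nt, and CDK19, a kinase of the Mediator complex, at 240 nt.

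**Figure D2:**
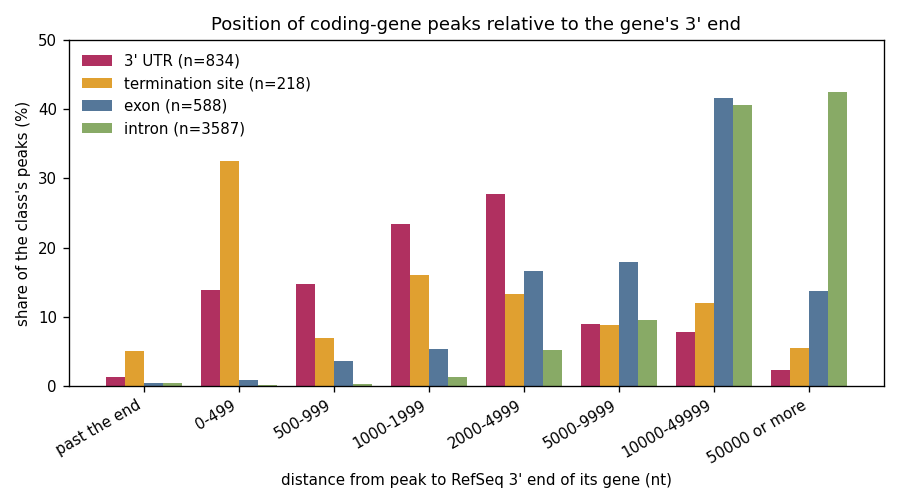
Share in percent of each class's coding-gene peaks by distance in nt from the peak to the 3' end of its gene in RefSeq, for peaks with known gene strand; n is the number of peaks and bins are of unequal width. The bin of 2000 to 4999 nt holds most 3' UTR peaks (27.7%) but is wide, with 7.70 peaks per 100 nt against 23.2 at 0 to 499 nt, where 32.6% of termination site peaks lie.

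A minority lay far inside the gene. For 84 of the 834 peaks (10.1%) the 3' end of the gene was 10000 nt or more away, and for 19 it was 50000 nt or more. The farthest was in EYS, a gene known for its role in photoreceptors, at 65305579 to 65305600 on chromosome 6 and 1585599 nt from the end. In RANBP2, a nucleoporin of the cytoplasmic filaments, the distance was 1057805 nt. It was 500298 nt in AUTS2, 394828 nt in the transcription factor gene MAF and 277588 nt in ASTN2. In MAF the peak was only 3266 nt from the 5' end of a span of 398116 nt. RefSeq spans join all transcripts of a gene, so a 3' UTR of a short transcript can lie far from the end of the longest. The EYS peak also lay in the span of the coding gene ZC3H11C, of unknown strand. The ASTN2 peak lay in that of TRIM32, which runs the opposite way. Which transcript or gene was contacted was not tested. Another 11 peaks lay past the RefSeq end, at values from -426 nt in RSPH10B to -19402 nt in MRPS25, a mitochondrial ribosomal protein gene. All 3 peaks of SLITRK5 were among them. Except for those of MRPS27, these past-end peaks also lay in the span of another RefSeq gene. The MRPS25 peak lay in NR2C2 and the CD247 peak in POU2F1, both of which run the opposite way. The SLITRK5 peaks lay in the long noncoding RNA gene LOC112268106, of unknown strand. Which gene's RNA was contacted was not tested.

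The 17 genes with 3 or more 3' UTR peaks show how the sites were arranged within 1 message. In each of them every 3' UTR peak was assigned to the same transcript. NUCKS1, a DNA-binding nuclear phosphoprotein, had 4 peaks on chromosome 1 between 205713236 and 205717222, of 31, 30, 37 and 66 nt. They lay 414, 1660, 2000 and 4335 nt from the 3' end, spread over 3987 nt, and the widest was the one farthest upstream. RIMOC1, a partner of the endosomal MON1-CCZ1 complex, had 4 peaks of 43, 22, 32 and 32 nt on chromosome 5 between 41917431 and 41921292. The last of them lay 344 nt from the end and the others 2785, 3746 and 4163 nt away.

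MYSM1, a deubiquitinase of histone H2A, had 4 peaks on chromosome 1 between 58655564 and 58659244, of 45, 43, 30 and 24 nt. Its strand was not in the tables used, so no distance to the end is given. HIF1AN, the asparaginyl hydroxylase that restrains the hypoxia factor HIF-1, had 4 peaks of 30, 19, 25 and 20 nt on chromosome 10, at 100549304, 100554462, 100555843 and 100557320. They were the most widely spread of the genes with 4, over 8036 nt. XIAP, an inhibitor of caspases, had peaks of 20, 16, 29 and 23 nt on chromosome X. One stood apart at 6581 nt from the end, and the other 3 lay 1756, 1580 and 1248 nt from it.

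RAB21, a small GTPase of early endosomes, had the tightest group among the genes with 4 peaks. Its 4 entries of 15, 3, 16 and 28 nt all lay within 379 nt on chromosome 12, between 71788209 and 71788587, about 12 kb before the RefSeq end (12063 to 11699 nt). The first and second of them touch, so they may be read as 3 sites. EIF1AX, the initiation factor eIF1A encoded on chromosome X, had 3 entries of 11, 4 and 42 nt within 205 nt, and ZFHX3, a homeobox transcription factor, had 3 of 4, 27 and 26 nt within 364 nt. In both, as in ZNF562, 1 pair touches, which leaves 2 sites. PIP5K1A, a kinase that makes phosphatidylinositol bisphosphate, had 3 separate peaks of 34, 30 and 28 nt within 442 nt, 211 to 619 nt from the 3' end.

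In the other genes with 3 peaks the sites were spread over 1 to 6 kb. ICMT, which methylates prenylated proteins, had peaks of 30, 65 and 14 nt over 1605 nt. PJA2, a RING ubiquitin ligase, had 45, 31 and 21 nt over 2226 nt, and ZDHHC20, a palmitoyltransferase, had 20, 23 and 55 nt over 3227 nt. UBE2W, a ubiquitin-conjugating enzyme that modifies protein N termini, had 41, 20 and 37 nt over 4016 nt. AFF4, the scaffold of the super elongation complex, had 24, 24 and 34 nt over 2059 nt, and ZNF431 had 33, 23 and 56 nt over 6161 nt. SLITRK5, a synaptic membrane protein, had 38, 52 and 51 nt, all past the RefSeq end of its gene, the first at -1567 nt and the last at -2561 nt. All of these lie in the span of the long noncoding RNA gene LOC112268106, whose strand was not known.

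**Figure D3:**
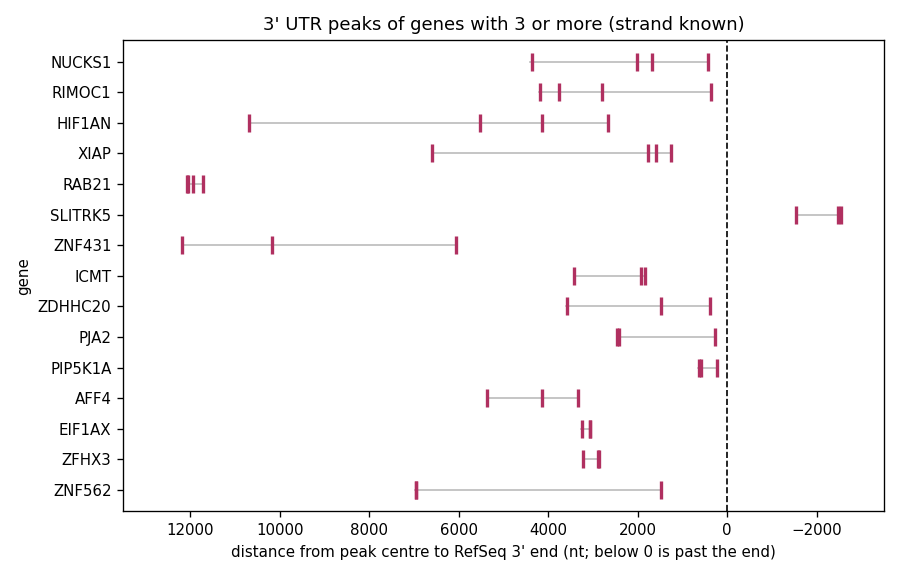
Each red mark is the centre of a 3' UTR peak in 1 of the 15 genes with 3 or more such peaks and a known strand, placed by its distance in nt to the RefSeq 3' end (dashed line, transcription runs left to right); grey lines join the peaks of a gene. RAB21, EIF1AX and PIP5K1A hold theirs within 379, 205 and 442 nt, HIF1AN over 8036 nt, and SLITRK5 past the end.

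Across all 99 genes with several 3' UTR peaks, there were 122 pairs of neighbours. In 10 pairs 1 peak starts at the base after the other ends, and 1 member of such a pair is often only a few bases long, as in MRPS27 (2 and 27 nt) and ZNF300 (4 and 24 nt). Joined, these leave 1012 peaks, 93 genes with several and 14 with 3 or more. Of the 112 pairs that do not touch, the median gap was 1112 nt (interquartile range 338 to 2134 nt). Gaps of 1 to 50 nt made up 9 pairs, 51 to 1000 nt 45 pairs, and 58 pairs were farther apart. The closest were 1 nt apart, in the sterol synthesis gene ERG28 and in SF1, the splicing factor that recognises the branch point, whose peaks of 27 and 47 nt lie between 64765285 and 64765359 on chromosome 11. Gaps of 2 nt were seen in EYA3 and GNAQ, 3 nt in PJA2, 7 nt in SDCBP, 13 nt in PIP5K1A, 17 nt in SLITRK5, 30 nt in ARID4B and 54 nt in LSS. In 88 of the 99 genes all 3' UTR peaks were assigned to 1 transcript.

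Most genes with a 3' UTR peak had peaks of no other class, leaving aside the intergenic one, which 17 genes also held. This was so in 546 of the 900 genes (60.7%, interval 57.4 to 63.8%), some of them with several 3' UTR peaks, such as RIMOC1 and HIF1AN. The most frequent partner was an intron peak, in 283 genes (31.4%), followed by an exon peak in 59, a promoter peak in 50, a termination site peak in 23 and a 5' UTR peak in 7. Intron peaks are also the class found in most coding genes of the list, and 2850 of RefSeq's 20050 coding genes held one. Seen from the other side, 9.77% of the 2898 coding genes with an intron peak also held a 3' UTR peak (8.74 to 10.9%). For genes with an exon peak the share was 9.37% of 630 (7.33 to 11.9%) and for those with a termination site peak 9.02% of 255 (6.09 to 13.2%). The intervals of these 3 shares overlap. Beside them, 4.39% of all RefSeq coding genes held a 3' UTR peak. Of those with any peak outside the intergenic class, 20.4% did, a set that includes genes with only a 3' UTR peak. Another peak of the same gene lay within 1000 nt for 146 of the 1022 peaks (14.3%), and for 119 of these the nearest was again a 3' UTR peak.

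Of coding-gene peaks outside the intergenic class, 14.8% were labelled 3' UTR. The 10 genes with most peaks in all each held 1 to 4 of theirs in the 3' UTR. MARS1, the cytosolic methionyl-tRNA synthetase, had 1 of 11 there and AUTS2 1 of 10. ARID4B, a subunit of a histone deacetylase complex, had 2 of 9, and NCOA2, a nuclear receptor coactivator, 1 of 9. AFF4 had 3 of 8, with the other 5 in introns, and ZDHHC20 had 3 of 7. NUCKS1 held the largest part there, with 4 of 7. The nucleoporin gene NUP153 and PAN3 and PUM2, both for proteins that act on mRNA tails and 3' UTRs, had 1 of 7 each, and in PAN3 and PUM2 the other 6 were intronic.

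The share of genes with a 3' UTR peak was higher in longer genes over part of the range of spans. When RefSeq's coding genes were divided into 5 equal groups by span, it was 1.37% in the shortest (1.06 to 1.78%) and 2.94%, 4.94% and 6.36% in the next groups. In the longest it was 6.33% (5.62 to 7.13%), with an interval that overlaps that of the group before it (5.64 to 7.16%). The share with an intron peak went from 1.07% in the shortest to 20.7% and 33.7% in the top groups with intervals that do not overlap (19.5 to 22.0% and 32.2 to 35.2%). Genes with a 3' UTR peak had a median span of 43517 nt, against 77049 nt for genes with an intron peak and 24093 nt for all coding genes. The length of the 3' UTRs themselves and the level of the mRNAs were not in the files, and their part in these shares was not tested.

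**Figure D4:**
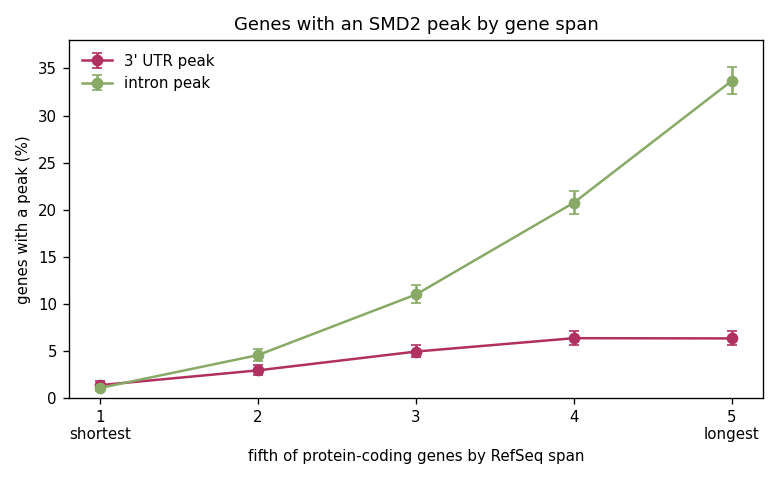
Percent of protein-coding genes with a 3' UTR peak (red) or an intron peak (green) in 5 equal groups of 4010 genes by RefSeq span, with Wilson 95% intervals. The red line reaches 6.36% in the fourth group and is 6.33% in the fifth, while the green line reaches 33.7%.

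By chromosome, 146 of the 1022 peaks (14.3%) lay on chromosome 1, which holds 10.3% of coding genes and 11.2% of the other coding-gene peaks. As a share of its coding genes, chromosome 13 was highest, with a 3' UTR peak in 25 of 338 (7.40%, interval 5.06 to 10.7%), followed by chromosome 18 with 6.30% and chromosome 7 with 6.18%. Chromosome 19 had 37 of 1451 (2.55%, 1.86 to 3.49%), the lowest among the autosomes. Chromosome X had 35 of 848 (4.13%). The 1 entry placed on chromosome Y, in PLCXD1, is in the pseudoautosomal part that X and Y share, and reads from the copies cannot be told apart.

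Other genes overlap some of the sites. A base of another RefSeq gene's span was shared by 122 peaks (11.9%), of which 81 lay on another coding gene and 35 on a long noncoding RNA. Where both strands were known, the other coding gene ran the opposite way for 28 peaks and the same way for 17, so that for these the list alone does not settle which RNA was contacted. The 3 peaks of ZDHHC20 lie in the span of the transcribed pseudogene MIPEPP3, both peaks of SIK3 in that of the antisense RNA APOA1-AS, and peaks of RBM8A, NSUN5, WDR73, ZNF721 and BOLA2-SMG1P6 in spans of other pseudogenes. RBM8A codes for a core protein of the exon junction complex, and its peak was 50 nt wide. No peak touched a RefSeq microRNA, snoRNA, snRNA or tRNA gene (0 of 1022 each). This follows in part from the rule, since peaks that the list gives to genes of other types are not members. A count of 0 allows 3 counts, a share of up to 0.294%, and the upper Wilson bound is 0.374%.

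Gene groups were read against the 4.39% of all coding genes with a 3' UTR peak and against the 20.4% of those with any peak. The list holds no RNA levels, so abundance of the mRNAs was not taken into account. Of 29 groups 22 had a share above 4.39%, but the interval lay above it in only 8, and the median group had 6.90%. Among members with any peak, 14 of 29 groups were above 20.4%. The interval lay above it in 1, the ZNF zinc finger genes (35 of 123, 28.5%, 21.2 to 37.0%). The intervals were not corrected for the number of groups. Of 13 microRNA pathway genes 4 held a 3' UTR peak (30.8%, interval 12.7 to 57.6%). They were DICER1, which cuts microRNA precursors, with 37 nt, the Argonaute genes AGO2 and AGO3 with 35 nt each, and TNRC6B, the scaffold of silencing, with 31 nt.

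Of 35 genes for regulators that bind 3' UTRs 8 did (22.9%, 12.1 to 39.02%). G3BP1, the stress granule nucleator, had peaks of 40 and 24 nt, 7924 and 3234 nt from the end. ZFP36L2, which recruits decay enzymes to AU-rich elements, had 59 nt, KHSRP 39 nt, the translational repressor PUM2 37 nt, QKI 34 nt and the stem-loop binding ligase RC3H2 31 nt. Of 27 deadenylation and decapping genes 6 did (22.2%, 10.6 to 40.8%). The helicase gene DDX6 had 53 and 20 nt, and the others had 1 peak each: 45 nt in the deadenylase subunit CNOT8, 32 nt in the decapping enzyme DCP2, 24 nt in PATL1, 21 nt in PAN3 and 20 nt in CNOT6. Set against members with any peak, the shares were 4 of 10, 8 of 26 and 6 of 15, that is 40% (16.8 to 68.7%), 30.8% (16.5 to 49.99%) and 40% (19.8 to 64.3%). All of these intervals include 20.4%.

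For neighbouring steps of RNA metabolism the counts were small and the intervals of the groups overlap. Of 15 genes that write, read or erase m6A 3 held a 3' UTR peak (20%, 7.05 to 45.2%), with 22 and 23 nt in the writer subunit ZC3H13, 26 nt in RBM15B and 21 nt in the nuclear reader YTHDC1. Of 20 cleavage and polyadenylation genes 2 did (10%), PABPN1 with 47 nt and PAPOLA, the poly(A) polymerase, with 36 nt at 34108 nt from the RefSeq end. Of 10 nonsense-mediated decay genes 1 did, the kinase SMG1. None of 16 exosome genes did (0%, up to 19.4%). Set against members with any peak, these 4 groups had 3 of 10, 2 of 9, 1 of 6 and 0 of 4. All 4 of those intervals include 20.4%.

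Among splicing genes the interval of each group includes the 4.39% of all coding genes. The 21 genes of the Sm proteins and of the SMN complex had none (0%, up to 15.5%). Set against the 7 of them with any peak, the interval runs up to 35.4% and includes 20.4%. Of 30 genes for proteins specific to single snRNPs 2 did (6.67%), SF3B3 and SF3B4 with 31 nt each, of 18 with any peak. Of 25 hnRNP genes, whose proteins coat nascent transcripts, 3 did (12%, 4.17 to 30.0%). HNRNPA2B1 had 20 and 39 nt, 1302 and 2422 nt from the end, HNRNPA1 20 nt and HNRNPDL 11 nt. Of 14 SR and TRA2 genes 2 did (14.3%, 4.01 to 39.9%), SRSF1 with 54 nt and SRSF5 with 9 nt. Of 16 pseudouridine synthase and cofactor genes 1 did (6.25%, 1.11 to 28.3%): PUS10, with 21 nt at 60940724 to 60940744 on chromosome 2, 501 nt from the end.

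Nuclear transport genes held a 3' UTR peak in 6 of 28 cases (21.4%, 10.2 to 39.5%). Among the 22 with any peak the share was 27.3% (13.2 to 48.2%), an interval that includes 20.4%. KPNA3, an importin alpha, had 20 and 17 nt, KPNA4 31 nt and KPNA1 18 nt. The importin IPO9 had 20 nt, the tRNA exporter XPOT 23 nt and RANBP2 24 nt. Translation factors did in 2 of 32 cases (6.25%), EIF1AX and EIF4H, the latter with 60 and 23 nt. Ribosomal protein genes did in 5 of 85 (5.88%, 2.54 to 13.04%). Besides RPS23 they included RPL14 with 18 and 52 nt, RPS29 with 21 nt and RPS4X with 18 nt.

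Among the large families, ZNF zinc finger genes had 44 peaks in 35 of 509 members (6.88%, 4.99 to 9.41%). ZNF431 and ZNF562 had 3 each, and ZNF24, ZNF234, ZNF326 and ZNF714 had 2 each. RAB small GTPase genes had 11 peaks in 6 of 63 (9.52%, 4.44 to 19.3%), with 4 in RAB21 and 2 each in RAB22A and RAB2B. Those of RAB2B touch. RAB3B, RAB5B and RAB31 had 1 each. UBE2 ubiquitin-conjugating enzymes did in 4 of 35 cases (11.4%, 4.54 to 26.0%): UBE2W, UBE2G1, UBE2V2 and UBE2O. Among members with any peak, RAB genes had 6 of 20 (30%, 14.5 to 51.9%) and UBE2 genes 4 of 20 (20%, 8.07 to 41.6%). Both of these intervals include 20.4%. SLC transporters, with 18 of 379 (4.75%), and TMEM genes, with 10 of 232 (4.31%), were near the share of all genes. SLC7A1, the cationic amino acid transporter, SLC25A40, SLC6A15 and SLC60A2 had 2 peaks each, SLC25A30 and SLC39A9 had 1 of 55 and 52 nt, and TMEM170A and TMEM33 had 2 each. TMEM263, TMEM106B, TMEM63C and TMEM185B had 1 each.

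Further groups had 1 to 3 genes with a 3' UTR peak. Of 36 cyclin and cyclin-dependent kinase genes these were CCNG2, CCNT2 and CDK19 (8.33%). Of 51 USP deubiquitinases they were USP46, USP28 and USP14 (5.88%), and of 29 chaperone genes PDIA3 and DNAJC3 (6.90%). Of 28 cytoskeleton genes they were the tubulins TUBB6, with 50 nt, and TUBA1A, with 20 nt (7.14%). Of 90 histone genes, most of which make short mRNAs that end in a stem-loop in place of a poly(A) tail, 2 did (2.22%, 0.612 to 7.74%). The peak of H2AX, the variant marked at DNA breaks, was 30 nt wide. Of 36 genes for complex I of the respiratory chain 1 did, NDUFS1, and of 6 genes for 14-3-3 proteins 1 did, YWHAB. None of 39 kinesin genes and none of 39 proteasome genes did (0%, up to 8.97% each). Set against the 11 of each with any peak, the interval runs up to 25.9% and includes 20.4%.

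**Figure D5:**
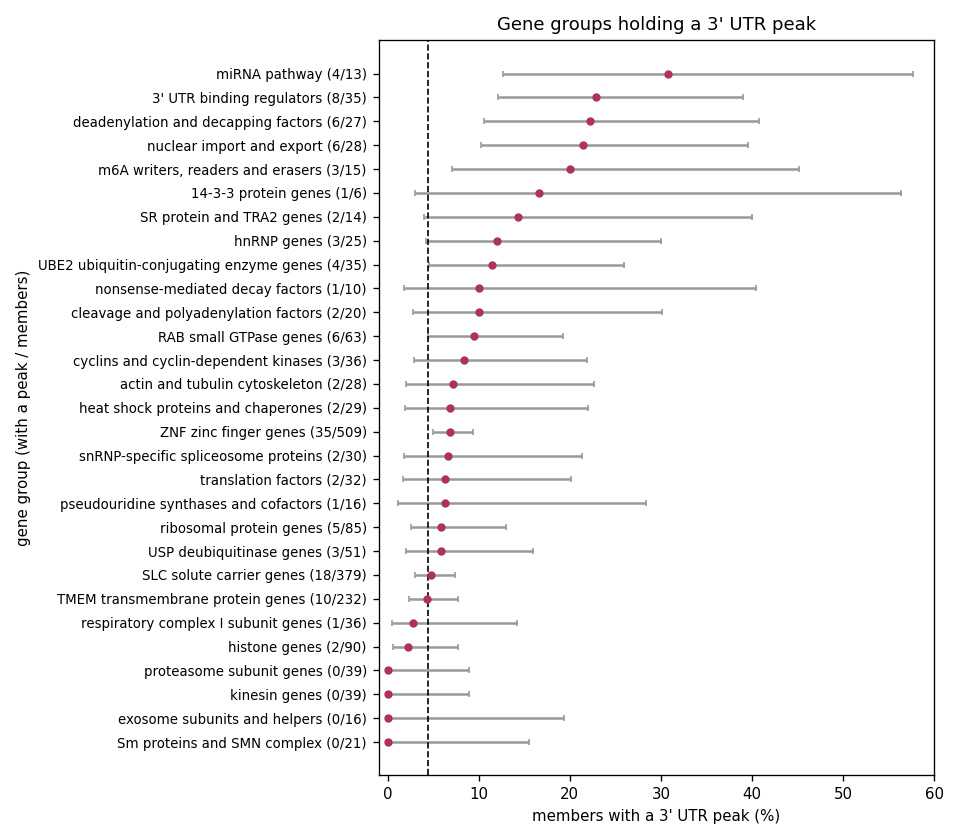
Percent of the members of 29 gene groups that hold a 3' UTR peak, with Wilson 95% intervals (grey); the numbers give members with such a peak over members in RefSeq, and the dashed line is the 4.39% of all coding genes. Shares run from 0% to 30.8%, and intervals of small groups are wide.

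The list is sorted by position except for its last 12 entries, which hold 2 of the 3' UTR peaks. One is in YKT6, a SNARE of vesicle fusion, at 44213674 to 44213708 on chromosome 7, 35 nt wide and 586 nt from the end. The other is the MARS1 peak at 57498597 to 57498646 on chromosome 12, 50 nt wide and 18006 nt from the end, closer to the 5' end of the gene (10529 nt). The sources used here do not say why these entries stand apart.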

How the data were processed

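PAR-CLIP libraries of HEK293T cells were made from SMD2 immunoprecipitates (3) and input (1), per the labels. The authors deposited 1 list of peak positions with an annotation class, a transcript and a gene for each. The submitters' processing notes name Trim Galore 0.6.10, Bowtie2 2.5.1 and hg38. No source used here gives the peak caller, any threshold, whether libraries were pooled, how the input was used, or the annotation software, and each of these can change which peaks are listed.

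Positions are printed counting from 1, although the list counts starts from 0. RefSeq (GRCh38.p14) gave gene spans, found through a shared symbol and chromosome for 995 peaks and through synonyms of genes no farther than 10000 nt for 7. Strand came from RefSeq's promoter table, with windows of 250 nt before to 50 nt after a start, which was also the only source of sequence. A gene group's share is its members with a 3' UTR peak over its members among RefSeq coding genes. Position and merging steps were tested on simulated peaks. The members, gene lists and rules were chosen with earlier results of these data known.

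Named are genes with 3 or more 3' UTR peaks, the 12 widest peaks, the 10 genes with most peaks, the 10 closest pairs that do not touch, peaks on small RNAs or pseudogenes, the 5 peaks farthest from the end and up to 6 genes per group, of which some are not reported here. Other genes, such as those at the ends of a range, in touching pairs or past the end of their gene, were named after their values were seen. The alternatives merged close or touching peaks, left out wide or unsorted entries or those outside the RefSeq span, kept 1 peak per gene or added termination site peaks. Software was Python 3.11.15 (numpy 2.4.6; pandas 2.3.3; scipy 1.17.1), with matplotlib 3.10.9 for the figures. Wilson intervals were computed from their formula.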

Additional observations from a re-analysis of the deposited data

How the results depend on the processing

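Of 41 values under an alternative, over 6 results and 7 alternatives, 38 stayed within the interval of the main value or, for counts, within 1.5 times. The other 3 moved. The share labelled 3' UTR among coding-gene peaks outside the intergenic class was 14.8%. It was 16.5% with 1 peak per gene, the widest, and 18.6% with termination site peaks added, by construction. The median width, 25 nt, was 27 nt with the widest peak of each gene. Genes with a 3' UTR peak numbered 900 and ranged from 721 (genes whose widest peak was a 3' UTR peak) to 1132 (termination sites added). Genes with 2 or more ranged from 87 (peaks within 50 nt merged) to 124, beside 99. With 1 peak per gene no gene can have 2, so that value was not computed. Joining touching peaks was chosen after seeing the data. No paired analysis was possible because the list has no value per library. For the same reason depth, replicate spread and leaving out a library could not be examined.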

Other observations

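Outside coding genes, the class 3' UTR was given to 37 peaks. Of these 35 were in 34 long noncoding RNA genes, with a median width of 24 nt, beside 25 nt in coding genes. The remaining peaks lay in CEP164P1, a transcribed processed pseudogene, with 21 nt, and in a gene that the list types as TEC, with 35 nt. The sources used here do not say how a 3' UTR was defined for genes of these types.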
